A study of Mus musculus with 63 samples.

Results

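The genes examined were the synaptopodin family (Synpo, Synpo2 and Synpo2l) and the alpha-actinins Actn1, Actn2 and Actn4, 6 of the 55291 gene symbols counted, chosen by symbol because Synpo is the targeted gene of the study and alpha-actinins bind its protein. Synaptopodin is an actin-associated protein of dendritic spines and of kidney podocytes, and neurons that lack it do not form the spine apparatus, a stack of endoplasmic reticulum in the spine neck. Alpha-actinins are antiparallel dimers that crosslink actin filaments. Actn1 and Actn4 encode the non-muscle forms, and Actn2 encodes a form of muscle Z-discs that is also found at dendritic spines, where it binds NMDA receptors. Synpo2 (myopodin) and Synpo2l encode relatives of synaptopodin known mainly from muscle.

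All libraries came from organotypic entorhino-hippocampal tissue cultures, prepared from mice of either sex at postnatal days 3 to 5 and kept for at least 18 days in vitro. The donors were wildtype C57BL/6J mice (Synpo+/+) or mice of the strain B6.129-Synpotm1Mndl/Dllr (Synpo-/-), which had been back-crossed to C57BL/6J, and the labels name no other allele or agent. In the regional experiment, the dentate gyrus (DG) or CA3 area of 1 culture gave 1 library, from control cultures or from cultures 3 days after an entorhinal cortex lesion (ECL), which removes the entorhinal input. Synpo+/+ CA3 held 2 control and 3 ECL libraries, Synpo+/+ DG 4 and 7, Synpo-/- CA3 6 and 6, and Synpo-/- DG 7 and 4. In the synaptopodin co-immunoprecipitation (coIP), RNA bound with an anti-synaptopodin antibody was sequenced beside the input lysate. Each of its samples pooled up to 6 cultures, and there were 5 non-lesioned and 5 ECL samples per fraction in Synpo+/+ and 2 per fraction in Synpo-/-, whose labels name no lesion. The 4 Synpo-/- libraries of the coIP were deeper (42886994 to 53682143 counts) than the 20 Synpo+/+ libraries (11601154 to 29014397 counts), so genotype and depth cannot be told apart there.

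Libraries held 11601154 to 53682143 counts over genes. Levels are given as CPM (the count of a gene divided by the library size, on a common scale), with library sizes scaled by TMM factors that ran from 0.817 to 1.21, and values with ± are means and SD. The library labelled Synpo+/+ DG ECL replicate 5 stood apart. Its level of Prox1, the transcription factor that marks dentate granule cells, was 15.5 CPM. The other 6 libraries of that group had 170 to 217 CPM and the CA3 libraries 12.7 to 44.0 CPM. Its summed level of 5 granule cell markers was 84.5 CPM (group median 584), inside the 79.9 to 185 CPM of CA3 libraries. For 5 markers of CA3 pyramidal cells, the highest sum in the group was 407 CPM (median 164), and CA3 libraries had 280 to 408 CPM. This library, replicate 5, was kept under its label. Values without it are given where stated, and all other values that draw on its group include it.

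Members were read at very different levels. Divided by the length of merged exons in kb, which allows genes to be set side by side, group means in the regional libraries ran from 2.36 to 5.43 CPM per kb for Synpo, from 3.74 to 5.88 for Actn1, from 2.34 to 3.93 for Actn4, from 1.30 to 3.39 for Actn2 and from 0.371 to 0.797 for Synpo2. In the input lysates Actn4 led, with group means of 5.88 to 6.82 CPM per kb, followed by Actn1 (3.84 to 4.47), Synpo (2.74 to 2.95), Actn2 (1.52 to 1.95) and Synpo2 (0.242 to 0.309). Synpo2l was read at the limit of detection. It had 0 to 26 counts per regional library, with 3 of the 6 Synpo-/- CA3 control libraries at 0, and its group means of 0.175 to 0.742 CPM support no comparison of levels. It passed the filter on low counts in some comparisons and was called in none of them. Actn3, the alpha-actinin gene of fast muscle fibres, was not among the members. It had regional group means of 0.383 to 1.08 CPM and input group means of 2.19 to 3.66 CPM.

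All positions are those of GRCm38, and all members lie on the minus strand. Synpo (ENSMUSG00000043079.17) occupies 60593973 to 60660142 of chromosome 18, with 9533 bases of merged exons. Synpo2 (ENSMUSG00000050315.14) lies at 123076519 to 123236149 of chromosome 3, and Synpo2l (ENSMUSG00000039376.13) at 20658946 to 20668354 of chromosome 14. Actn1 (ENSMUSG00000015143.15) lies at 80167547 to 80260371 of chromosome 12, Actn2 (ENSMUSG00000052374.16) at 12269426 to 12340760 of chromosome 13, and Actn4 (ENSMUSG00000054808.15) at 28893248 to 28962340 of chromosome 7. Reads were counted without regard to strand. Of the merged exon bases of Actn1, 6.56% are shared with the gene Gm47766 and 1.59% with Gm47767, and 5.16% of those of Actn4 are shared with Capn12, so reads there cannot be assigned to 1 gene. No exon of Synpo, Synpo2, Synpo2l or Actn2 overlaps another annotated gene.

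Synpo, the targeted gene, was read in every library labelled Synpo-/-. In the regional experiment its levels in Synpo-/- controls lay above those in Synpo+/+ controls, whereas in the input lysates the 2 Synpo-/- samples (26.4 and 29.9 CPM) lay inside the range of the 5 non-lesioned Synpo+/+ samples (20.3 to 32.2 CPM). In DG controls, the 4 Synpo+/+ libraries had 19.1, 22.8, 24.4 and 23.5 CPM. The 7 Synpo-/- libraries had a lowest value of 40.9, a median of 50.8 and a highest of 69.3 CPM. The groups did not overlap, and Synpo was 2.25-fold higher in Synpo-/- (log2 fold change 1.17, SE 0.126, adjusted p 0.000517, quasi-likelihood test of edgeR, with Benjamini-Hochberg adjusted p over all genes, as throughout). Synpo was the 1 member of 6 called in that comparison, in which 0.0166% of all genes were called, or 4 genes. DESeq2 called 259 genes, Synpo among them. The counts per gene do not show which part of the locus the reads came from, so they do not check whether the targeted part of the gene was transcribed. In bulk tissue, fewer cells of a type and less RNA per cell cannot be told apart, here and in all comparisons that follow.

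In CA3 controls, Synpo had 25.8 and 25.9 CPM in the 2 Synpo+/+ libraries, against a lowest value of 30.4, a median of 40.2 and a highest of 49.1 CPM in the 6 Synpo-/- libraries. The groups did not overlap, but the difference missed the threshold (log2 fold change 0.58, SE 0.145, adjusted p 0.113), and 0.00413% of all genes were called. With DESeq2 or without the filter on low counts, Synpo was called there, with adjusted p of 0.0133 and 0.017. After ECL the genotypes overlapped. In DG, Synpo had 23.1 to 38.4 CPM (median 28.4) in the 7 Synpo+/+ libraries and 38.6, 40.4, 40.8 and 32.8 CPM in the 4 Synpo-/- libraries (log2 fold change 0.35, SE 0.136, adjusted p 1, and 0.41 without Synpo+/+ replicate 5). In CA3, it had 36.4, 35.1 and 34.5 CPM in Synpo+/+ and 35.3 to 45.3 CPM (median 40.4) in Synpo-/- (0.25, SE 0.109, adjusted p 0.808). No member was called between genotypes after ECL, where 0.0166% of all genes in DG and 0.00891% in CA3 were called by edgeR. At an unadjusted p under 0.05 there were 1 member in DG and 2 in CA3, and DESeq2 called none.

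**Figure D1:**
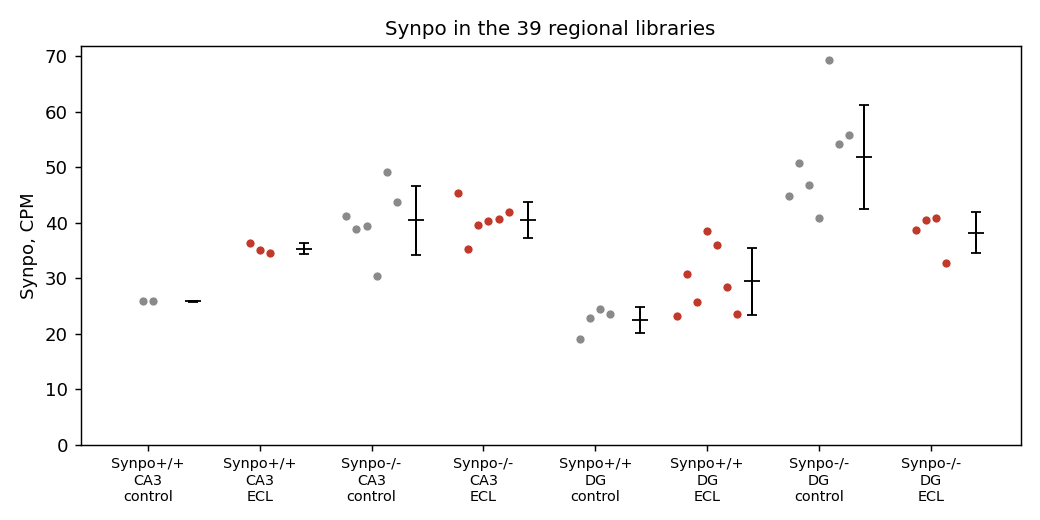
CPM of Synpo (vertical axis) in each of the 39 regional libraries, by genotype, area and lesion (grey, control; red, ECL), with the mean and SD beside the points. Synpo-/- DG controls, at 40.9 to 69.3 CPM, lie above all Synpo+/+ DG libraries, and the Synpo-/- DG libraries after ECL lie just below them.

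After the lesion, Synpo was lower in Synpo-/- DG, and in Synpo+/+ DG its estimate lay in the other direction. In Synpo-/- DG, the 7 control libraries had 40.9 to 69.3 CPM and the 4 ECL libraries 32.8 to 40.8 CPM, so that the groups touched without overlapping. Synpo was lower after ECL (log2 fold change -0.48, SE 0.119, adjusted p 0.0193). It did not pass without ECL replicate 1 (adjusted p 0.0565) or ECL replicate 4 (0.0903). In Synpo+/+ DG it had 22.5 ± 2.36 CPM in controls and 29.4 ± 5.98 CPM after ECL, with overlapping groups and a log2 fold change of 0.36 that missed the threshold (SE 0.142, adjusted p 0.0982), although it passed with all 8 groups in one fit (0.39, adjusted p 0.042). Without ECL replicate 5 it was 0.29 (adjusted p 0.141). The difference between these responses was -0.87 (SE 0.195, unadjusted p 0.000134), and with adjustment over 26245 genes it was not called (adjusted p 0.478). Without Synpo+/+ ECL replicate 5 it was -0.82 (adjusted p 0.595). In that test 0.00381% of all genes were called by edgeR and no member, with Synpo the 1 member at an unadjusted p under 0.05, and DESeq2 called no member.

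In CA3, the 2 Synpo+/+ control libraries had 25.8 and 25.9 CPM of Synpo and the 3 ECL libraries 34.5 to 36.4 CPM. The groups did not overlap, and the log2 fold change of 0.35 missed the threshold (SE 0.126, adjusted p 0.139). In Synpo-/- CA3 the level was 40.4 ± 6.19 CPM in controls and 40.5 ± 3.26 CPM after ECL (SD, n = 6 each; log2 fold change 0.02, SE 0.0955, interval of 2 SE from -0.18 to 0.21). No member was called after ECL in CA3 of either genotype, beside 1.78% of all genes in Synpo+/+ and 0.077% in Synpo-/- (edgeR). At an unadjusted p under 0.05 there were 4 members in Synpo+/+ and 1 in Synpo-/-, and DESeq2 called none. The interaction of genotype and lesion in CA3 called 0 genes of 26821 (0% of all genes, edgeR), with 4589 at an unadjusted p under 0.05 and 383 called by DESeq2, no member among them.

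Between areas, Synpo was higher in DG than in CA3 in Synpo-/- controls (log2 fold change 0.46, SE 0.104, adjusted p 0.00272). The values were 40.9 to 69.3 CPM in DG and 30.4 to 49.1 CPM in CA3, and the groups overlapped. In the other region comparisons the log2 fold change of Synpo was -0.19 (Synpo+/+ controls, adjusted p 0.601), -0.20 (Synpo+/+ after ECL, 0.457) and -0.07 (Synpo-/- after ECL, 0.737). Over the 8 regional groups, mean levels of Synpo rose in the order Synpo+/+ DG control, Synpo+/+ CA3 control, Synpo+/+ DG ECL, Synpo+/+ CA3 ECL, Synpo-/- DG ECL, Synpo-/- CA3 control, Synpo-/- CA3 ECL and Synpo-/- DG control. Only the lowest pair of neighbours in that order lay further apart than their SDs, with 2 libraries in one of the groups.

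Synpo2 was raised by the lesion in Synpo-/- DG. The 7 control libraries had 4.70 to 8.47 CPM (median 5.77), and the 4 ECL libraries had 12.0, 10.7, 10.7 and 8.33 CPM. All but 1 ECL library lay above the controls, and the log2 fold change was 0.70 (SE 0.161, adjusted p 0.0122). With Synpo lower and Synpo2 higher, 2 of 6 members were called in a comparison that called 8.53% of all genes. In the same libraries all 5 astrocyte markers were higher after ECL (summed level 3000 to 3610 CPM in controls and 5080 to 6610 CPM after ECL), as were all 5 microglia markers (344 to 605 and 773 to 944 CPM). Of the 7 markers of vascular smooth muscle cells and pericytes, 5 were tested and none was called, with summed levels of 119 to 224 CPM in controls and 145 to 206 CPM after ECL. Tagln, a defining smooth muscle marker, was at 0 in 2 libraries of each group. The part of these cell types in the change of Synpo2 was not tested.

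In Synpo+/+ DG, Synpo2 had 5.57 to 8.83 CPM in the 4 controls and 4.39 to 12.0 CPM (median 8.59) after ECL, with overlapping groups (log2 fold change 0.17, SE 0.232, not called). The lowest of the ECL values belonged to replicate 5, without which the log2 fold change was 0.27 (adjusted p 0.326). The difference between the genotypes in the DG response was 0.50 (SE 0.287, unadjusted p 0.091, adjusted p 0.489) and was not called. In CA3, Synpo2 had a log2 fold change after ECL of -0.52 (SE 0.226, adjusted p 0.195) in Synpo+/+ and -0.14 (SE 0.173, adjusted p 0.91) in Synpo-/-.

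After the lesion, Synpo2 was called higher in DG than in CA3 in Synpo-/-. Whether the area difference changed with the lesion was not tested. In Synpo-/- the 4 DG libraries had 8.33 to 12.0 CPM and the 6 CA3 libraries 4.31 to 7.29 CPM, with no overlap (log2 fold change 0.95, SE 0.17, adjusted p 0.00145). In Synpo+/+ the log2 fold change was 0.85 (SE 0.267, adjusted p 0.102), and without DG ECL replicate 5 it was 0.93 with an adjusted p of 0.00215. Without that library 19.8% of all genes were called, against 2.05% with it. In controls the difference was 0.16 in Synpo-/- (SE 0.164, adjusted p 0.524) and 0.18 in Synpo+/+ (SE 0.242, adjusted p 0.784), with intervals of 2 SE from -0.17 to 0.49 and from -0.31 to 0.66. In the lesioned Synpo-/- libraries, all 5 granule cell markers were higher in DG (summed level 547 to 757 CPM against 79.9 to 125 CPM in CA3) and all 5 CA3 pyramidal cell markers lower (113 to 162 against 326 to 395 CPM). All 5 astrocyte markers, 4 of 5 microglia markers and 3 of 5 fibroblast markers were higher in DG as well. The summed fibroblast level was 42.6 to 165 CPM in DG and 20.8 to 48.6 CPM in CA3. Of 7 markers of vascular smooth muscle cells and pericytes, 6 were tested, with 1 called higher and 1 lower in DG. Their summed level was 145 to 206 CPM in DG and 31.3 to 71.8 CPM in CA3, without overlap. The part of all these cell types in the difference of Synpo2 was not tested. Mean levels of Synpo2 ran from 4.85 ± 0.455 CPM (Synpo+/+ CA3 ECL) to 10.4 ± 1.54 CPM (Synpo-/- DG ECL), and no neighbours in the order of the 8 groups lay further apart than their SDs.

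**Figure D2:**
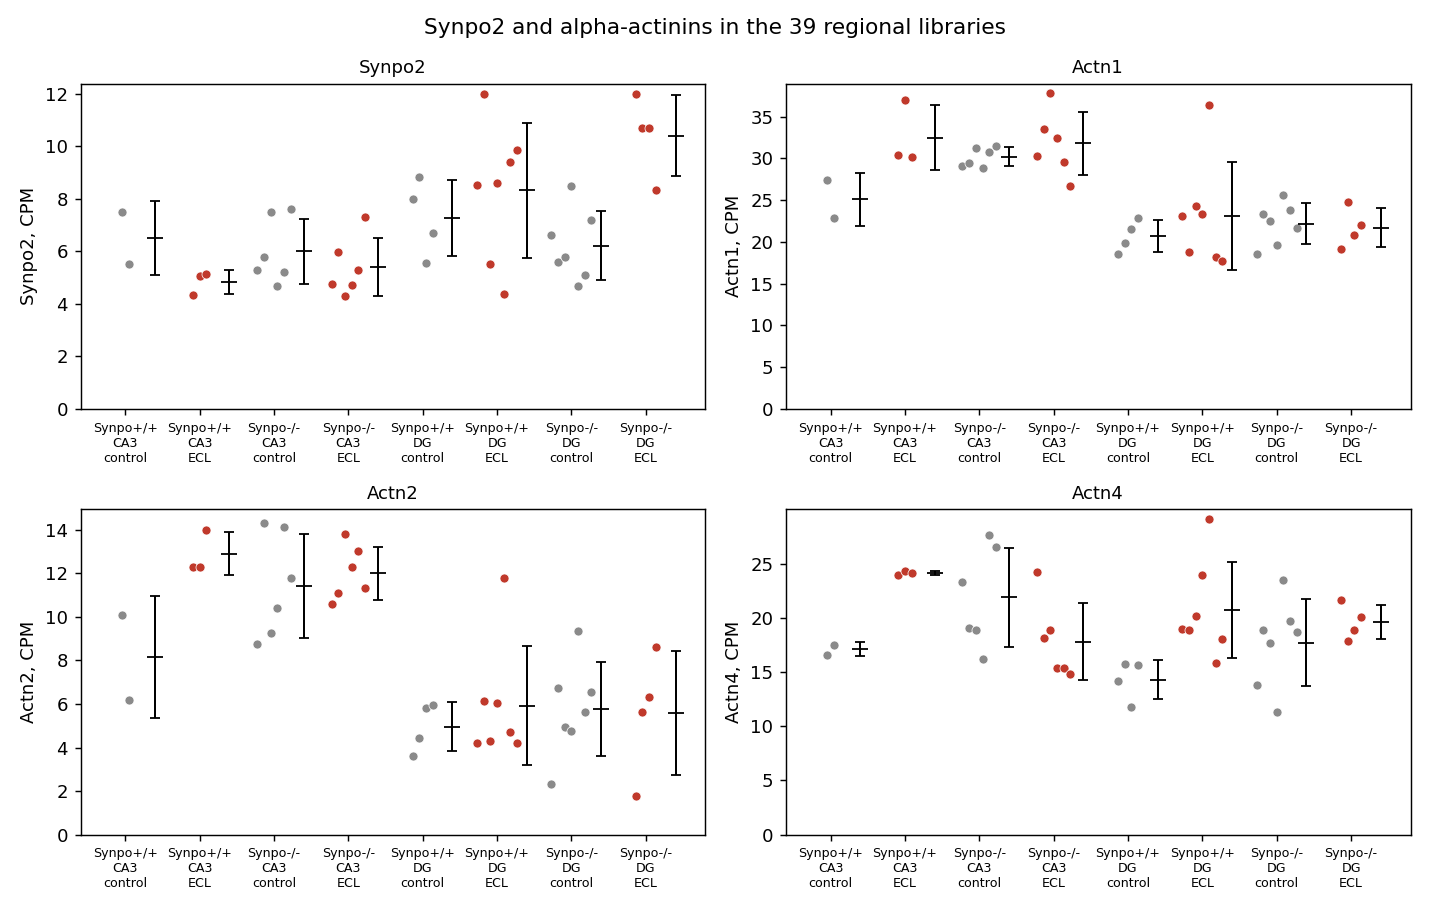
CPM of Synpo2, Actn1, Actn2 and Actn4 (vertical axes) in each of the 39 regional libraries, by genotype, area and lesion (grey, control; red, ECL), with the mean and SD beside the points. Synpo2 is highest in Synpo-/- DG after ECL (10.4 ± 1.54 CPM), group means of Actn1 and Actn2 are lower in DG than in CA3 while single libraries of the areas overlap, with 1 Synpo+/+ DG library at 36.4 and 11.8 CPM, and Actn4 is lowest in Synpo+/+ DG controls (14.3 ± 1.83 CPM).

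Actn2, the alpha-actinin that anchors NMDA receptors at spines, was the member with the largest differences between areas, and in lesioned cultures its level in DG was 0.481 of that in CA3 in Synpo+/+ and 0.474 in Synpo-/-. In lesioned Synpo+/+ cultures, the 3 CA3 libraries had 12.3, 12.3 and 14.0 CPM. The 7 DG libraries had 4.20, 6.12, 4.29, 6.02, 11.8, 4.73 and 4.23 CPM, and all lay below CA3, with replicate 5 the closest to it. The log2 fold change of DG over CA3 was -1.05 (SE 0.253, adjusted p 0.0471), and 1 of 6 members and 2.05% of all genes were called. Without DG ECL replicate 5 the log2 fold change was -1.34 (adjusted p 8.19e-06), and the share of all genes called rose to 19.8%. Leaving out any 1 of the other 9 libraries ended the call of Actn2, with adjusted p from 0.0798 to 0.203.

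In Synpo-/- controls, Actn2 had 2.33 to 9.34 CPM (median 5.63) in the 7 DG libraries and 8.77 to 14.3 CPM (median 11.1) in the 6 CA3 libraries, with 1 DG library inside the CA3 range (log2 fold change -0.89, SE 0.207, adjusted p 0.00318). In lesioned Synpo-/- cultures, the 4 DG libraries had 1.79, 5.63, 6.32 and 8.59 CPM and the 6 CA3 libraries 10.6 to 13.8 CPM, without overlap (-1.08, SE 0.278, adjusted p 0.0169). In Synpo+/+ controls, the 4 DG libraries had 3.59 to 5.95 CPM and the 2 CA3 libraries 10.1 and 6.17 CPM, and the log2 fold change of -0.70 was not called (SE 0.269, adjusted p 0.175).

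Actn1 differed between areas in the same direction and by less. In Synpo-/- controls it had 18.5 to 25.6 CPM (median 22.5) in DG and 28.9 to 31.5 CPM (median 30.1) in CA3, and the groups did not overlap (log2 fold change -0.34, SE 0.0778, adjusted p 0.00278). After ECL, the Synpo-/- values were 19.2, 24.8, 20.8 and 22.0 CPM in DG and 26.7 to 37.9 CPM (median 31.4) in CA3, again without overlap (-0.54, SE 0.115, adjusted p 0.00537). In lesioned Synpo+/+ cultures, the 3 CA3 libraries had 30.4, 37.0 and 30.2 CPM. Of the 7 DG libraries, 6 had 17.7 to 24.3 CPM and replicate 5 had 36.4 CPM, inside the CA3 range. The log2 fold change was -0.43 (SE 0.18, adjusted p 0.205) with that library and -0.59 (SE 0.129, adjusted p 0.00327) without it. The share of all genes called was 2.05% with it and 19.8% without it.

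In all, 3 of 5 members tested were called between areas in Synpo-/- controls (Synpo higher, Actn1 and Actn2 lower in DG; 25.5% of all genes called) and 3 of 6 in lesioned Synpo-/- cultures (Synpo2 higher, Actn1 and Actn2 lower; 13.6%). In Synpo+/+ controls, with 2 CA3 libraries, edgeR and DESeq2 called 0 of 6, with 1 at an unadjusted p under 0.05, beside 5.39% of all genes. In Synpo-/- controls the same libraries differed in all 5 markers of dentate granule cells (summed level 450 to 665 CPM in DG and 91.6 to 185 CPM in CA3), in all 5 markers of CA3 pyramidal cells (92.9 to 175 and 321 to 408 CPM) and in all 5 markers of oligodendrocytes (435 to 1320 and 1570 to 2490 CPM), whose part in the differences of Actn1 and Actn2 was not tested. Between the genotypes, neither gene was called. Actn1 had log2 fold changes of -0.11 to 0.20 and Actn2 of -0.10 to 0.43 in the 4 genotype comparisons. The lowest of each was in lesioned DG, where they were 0.03 and 0.17 without Synpo+/+ replicate 5. The order of mean levels placed all 4 DG groups below all 4 CA3 groups for both genes. For Actn2 no neighbours in that order lay further apart than their SDs, and for Actn1 only Synpo+/+ CA3 control (25.1 ± 3.21 CPM) and Synpo-/- CA3 control (30.2 ± 1.13 CPM) did.

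In lesioned Synpo-/- cultures, Actn1 and Actn2 were lower and Synpo2 higher in DG than in CA3. The 250 bases before their RefSeq starts (GRCm38.p6) are therefore shown, 5′ to 3′ on the transcribed (minus) strand. Capitals mark every match, on either strand, to the GC box, the E-box, the TATA element, the CArG box and the MEF2 site, and overlapping matches share their capitals.
Synpo2, chr3:123236150-123236399: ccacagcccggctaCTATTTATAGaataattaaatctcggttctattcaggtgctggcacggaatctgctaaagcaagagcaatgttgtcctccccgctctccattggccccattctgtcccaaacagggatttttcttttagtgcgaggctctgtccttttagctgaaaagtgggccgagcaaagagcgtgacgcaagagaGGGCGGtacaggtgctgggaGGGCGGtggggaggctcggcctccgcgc
Actn1, chr12:80260364-80260613: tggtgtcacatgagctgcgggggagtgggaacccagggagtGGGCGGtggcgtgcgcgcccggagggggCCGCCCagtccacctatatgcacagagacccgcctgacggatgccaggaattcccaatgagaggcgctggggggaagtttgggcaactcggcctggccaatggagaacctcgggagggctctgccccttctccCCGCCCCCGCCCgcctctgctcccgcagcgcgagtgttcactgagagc
Actn2, chr13:12340733-12340982: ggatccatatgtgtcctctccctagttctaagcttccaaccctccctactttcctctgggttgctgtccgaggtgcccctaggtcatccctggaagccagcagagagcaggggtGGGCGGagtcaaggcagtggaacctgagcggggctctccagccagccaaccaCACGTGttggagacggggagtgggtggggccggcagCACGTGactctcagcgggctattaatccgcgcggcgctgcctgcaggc
The GC box, with the letters GGGCGG, occurred 4 times before Actn1, 2 times before Synpo2 and 1 time before Actn2, and in 33% of 32536 such windows. The E-box, with the letters CACGTG, occurred 2 times before Actn2 and in neither of the other windows, and 6.04% of all windows hold it. The Synpo2 window holds a MEF2 site (0.513% of windows), which overlaps a match to the TATA element with the letters TATAAA (12.3%) on the other strand, and none of the 3 holds a CArG box (1.48%). These letters are a description and do not show that a factor binds there.

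Actn4, the non-muscle alpha-actinin that is also needed in podocytes, was the 1 member of 6 called after the lesion in Synpo+/+ DG, where 12.2% of all genes were called. The 4 controls had 14.2, 15.7, 11.8 and 15.6 CPM. The 7 ECL libraries had 15.8 to 29.1 CPM (median 19.0), all above the controls, and the highest was replicate 5. The log2 fold change was 0.50 (SE 0.152, adjusted p 0.0438), and 0.39 (adjusted p 0.0485) without replicate 5. The call is marginal: leaving out any of the 4 controls or ECL replicates 1, 2, 3, 4 or 7 gave adjusted p of 0.0506 to 0.14. In the same libraries 4 of 5 astrocyte markers (summed level 2650 to 3140 CPM in controls and 4540 to 6020 CPM after ECL) and 5 of 5 microglia markers (247 to 349 and 684 to 826 CPM) were higher, and their part in the change of Actn4 was not tested.

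In the other lesion comparisons Actn4 was not called. In Synpo+/+ CA3 it had 16.6 and 17.5 CPM in controls and 23.9, 24.3 and 24.1 CPM after ECL, without overlap (log2 fold change 0.39, SE 0.133, adjusted p 0.124). In Synpo-/- CA3 it had 21.9 ± 4.56 CPM in controls and 17.8 ± 3.53 CPM after ECL (-0.29, SE 0.135, adjusted p 0.684), and in Synpo-/- DG 17.7 ± 4.00 and 19.6 ± 1.58 CPM (0.11, SE 0.147, adjusted p 0.749). The difference between the genotypes in the CA3 response was -0.72 (SE 0.242, unadjusted p 0.00721, adjusted p 0.169). In the DG response it was -0.43 (SE 0.226, unadjusted p 0.0676, adjusted p 0.48), and neither was called. Actn1 and Actn2 were called in none of the 4 lesion comparisons, and their log2 fold changes ran from -0.07 to 0.27 and from -0.06 to 0.56. In Synpo+/+ DG they were 0.13 for Actn1 and 0.23 for Actn2, and without ECL replicate 5 they were -0.03 and -0.05. Mean levels of Actn4 were lowest in Synpo+/+ DG control and highest in Synpo+/+ CA3 ECL (24.1 ± 0.199 CPM). Only the lowest pair in that order, Synpo+/+ DG control and Synpo+/+ CA3 control, lay further apart than their SDs.

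**Figure D3:**
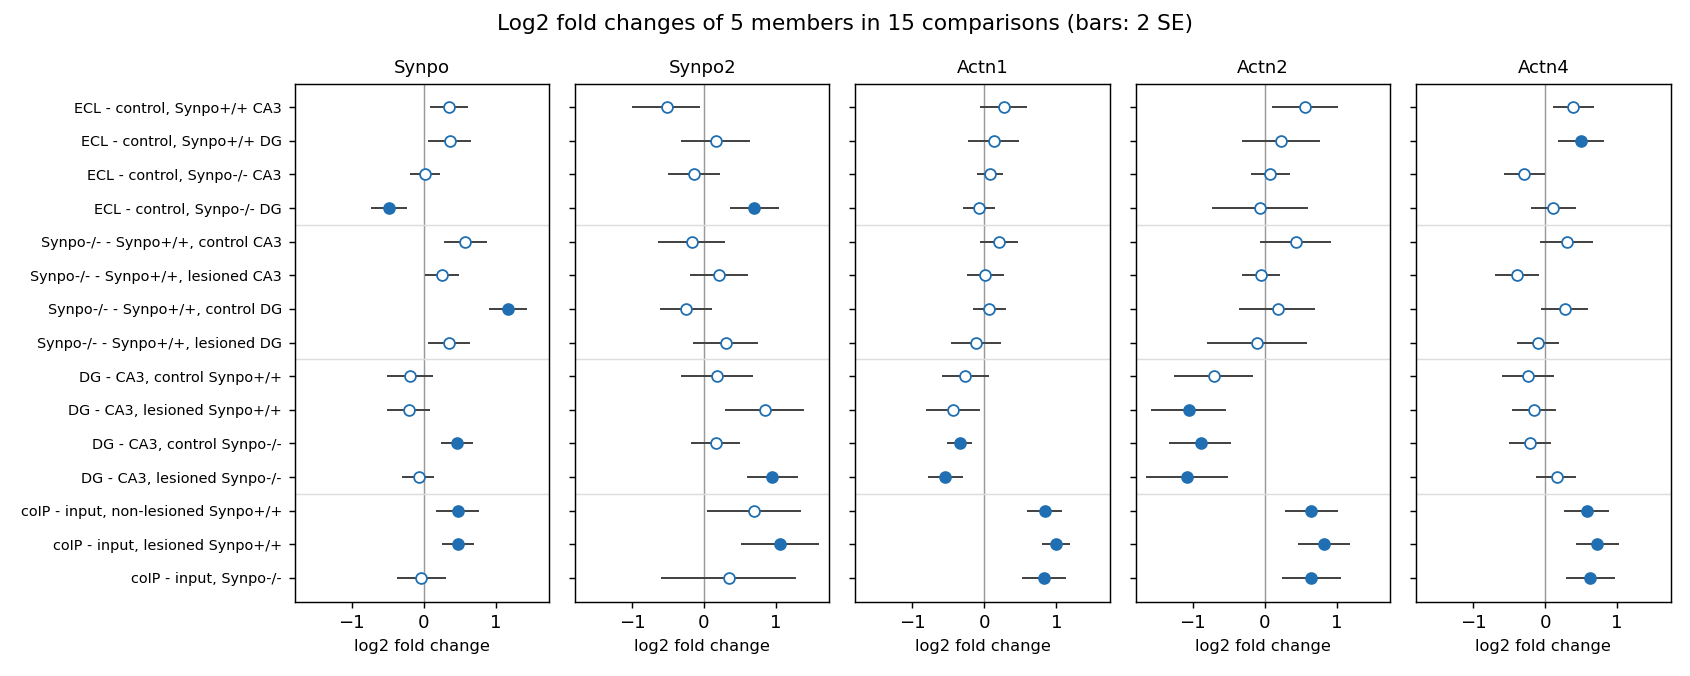
Log2 fold changes (horizontal axes) of Synpo, Synpo2, Actn1, Actn2 and Actn4 in 15 comparisons (vertical axis), with bars of 2 SE on each side; filled points were called at an adjusted p under 0.05. Synpo stands out between genotypes in control DG (1.17), Actn2 between DG and CA3 (from -1.08 to -0.70, with the smallest not called), and the 3 alpha-actinins in coIP over input of both genotypes (0.58 to 0.99).

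In the coIP, mRNAs of Actn1, Actn2 and Actn4 were higher than in the input in both genotypes, and Synpo mRNA was called higher in Synpo+/+. Actn3, which was not among the members, was not called. Its log2 fold change was 0.39 in non-lesioned Synpo+/+ (adjusted p 0.277), 0.37 in lesioned Synpo+/+ (0.298) and -0.42 in Synpo-/- (0.303). Synpo in non-lesioned Synpo+/+ had 20.3, 24.1, 25.9, 28.2 and 32.2 CPM in the 5 inputs and 27.0, 31.9, 39.7, 37.7 and 42.2 CPM in the 5 coIP samples of the same numbers. Input and coIP overlapped as groups, but within each preparation the coIP was higher, by 1.31 to 1.53 times. The test of the groups gave a log2 fold change of 0.47 (SE 0.14, adjusted p 0.0107). Here and below, tests of the coIP did not pair samples of a preparation unless stated. In lesioned Synpo+/+ the coIP was 1.14 to 1.58 times the input in 5 of 5 preparations (0.47, SE 0.104, adjusted p 0.00134). In the 2 Synpo-/- preparations, Synpo had 29.9 and 26.4 CPM in the input and 30.7 and 25.7 CPM in the coIP, with ratios of 1.03 and 0.973 by the first number in their titles (-0.03, SE 0.159, adjusted p 0.896). The titles of the Synpo-/- inputs carry 2 numbers that disagree, and by the other one the ratios were 1.16 and 0.86.

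The difference of Synpo between the genotypes was itself not called. The interaction of genotype and fraction was 0.45 (SE 0.249, interval of 2 SE from -0.05 to 0.95, unadjusted p 0.0876, adjusted p 0.761). With samples of a preparation paired it was 0.45 (SE 0.149, unadjusted p 0.00781, adjusted p 0.191), and with the Synpo-/- numbers crossed 0.45 (SE 0.168, adjusted p 0.258). Of 20621 genes, 0% were called by edgeR, with 1511 at an unadjusted p under 0.05, and DESeq2 called 60, no member among them. The enrichment of Synpo in Synpo+/+ depended on the trend of counts with gene length and GC content between libraries. With the length trend removed the log2 fold changes were 0.14 in non-lesioned (adjusted p 0.391) and 0.14 in lesioned samples (adjusted p 0.233). With length and GC trends removed they were -0.19 (adjusted p 0.126) and -0.23 (adjusted p 0.0433), and -0.43 in Synpo-/- (adjusted p 0.047).

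Actn1 had the largest enrichment among the alpha-actinins. In non-lesioned Synpo+/+ it had 17.2, 21.5, 18.1, 23.6 and 25.7 CPM in the input and 35.2, 36.3, 39.9, 36.6 and 39.7 CPM in the coIP, without overlap (log2 fold change 0.84, SE 0.115, adjusted p 2.51e-05). In lesioned Synpo+/+ it had 21.8 to 23.6 CPM and 40.6 to 49.0 CPM (0.99, SE 0.0918, adjusted p 2.67e-06). In Synpo-/- it had 25.3 and 24.2 CPM in the input and 42.9 and 47.2 CPM in the coIP (0.83, SE 0.146, adjusted p 0.00145). The difference between the genotypes was -0.04 (SE 0.2, interval of 2 SE from -0.44 to 0.36). With length and GC trends removed, Actn1 was still called in all 3 comparisons, with log2 fold changes of 0.69, 0.87 and 0.81.

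Actn2 and Actn4 were likewise higher in the coIP of both genotypes. Actn2 had 7.40 ± 1.82 CPM in the input and 11.4 ± 1.73 CPM in the coIP of non-lesioned Synpo+/+ (n = 5 per fraction, a log2 fold change of 0.64, SE 0.176, adjusted p 0.00623), and 7.32 and 6.68 CPM against 11.7 and 10.7 CPM in Synpo-/- (0.64, SE 0.198, adjusted p 0.0269). Actn4 had 41.8 ± 8.92 and 61.5 ± 8.59 CPM in non-lesioned Synpo+/+ (0.58, SE 0.147, adjusted p 0.00392), and 42.2 and 35.8 CPM against 53.3 and 70.0 CPM in Synpo-/- (0.63, SE 0.163, adjusted p 0.0119). In lesioned Synpo+/+ the log2 fold changes were 0.82 for Actn2 (SE 0.176, adjusted p 0.00119) and 0.72 for Actn4 (SE 0.142, adjusted p 0.000598). The coIP exceeded the input in 5 of 5 preparations of each Synpo+/+ condition and in 2 of 2 of Synpo-/- by either number, for Actn1, Actn2 and Actn4 alike. With 2 samples per fraction, the calls of Actn2 and Actn4 in Synpo-/- were lost without input replicate 2 (adjusted p 0.142 and 0.101). Actn2 was also lost without input replicate 1 (0.0579) or coIP replicate 1 (0.0806), and Actn4 without coIP replicate 2 (0.0708). Removing length and GC trends took Actn4 in non-lesioned Synpo+/+ to 0.24 (adjusted p 0.0817).

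Synpo2 was enriched in lesioned Synpo+/+, from 2.63 to 5.17 CPM in the input to 3.48 to 10.3 CPM in the coIP, with 1 coIP sample inside the input range (log2 fold change 1.06, SE 0.264, adjusted p 0.00349). With the length trend removed it was 0.58 (adjusted p 0.0853). In non-lesioned Synpo+/+ it had 1.77 to 4.17 CPM in the input and 2.56 to 9.11 CPM in the coIP (0.69, SE 0.317, adjusted p 0.0762). With samples of a preparation paired it was called there (0.63, adjusted p 0.00545), as it was without coIP replicate 1 (0.82, adjusted p 0.0452) or coIP replicate 3 (0.85, adjusted p 0.0315). In Synpo-/- its 2 coIP samples disagreed, at 6.63 and 1.74 CPM against 3.51 and 2.89 CPM in the inputs, and the log2 fold change of 0.34 (adjusted p 0.603) became 1.01 (adjusted p 0.0143) without coIP replicate 2 and -0.92 (adjusted p 0.0736) without coIP replicate 1. Synpo2l had at most 13 counts in any of these libraries and was not tested in any comparison of coIP with input. It passed the filter on low counts in the interaction of lesion and fraction and was not called there (-0.07, SE 1.03).

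**Figure D4:**
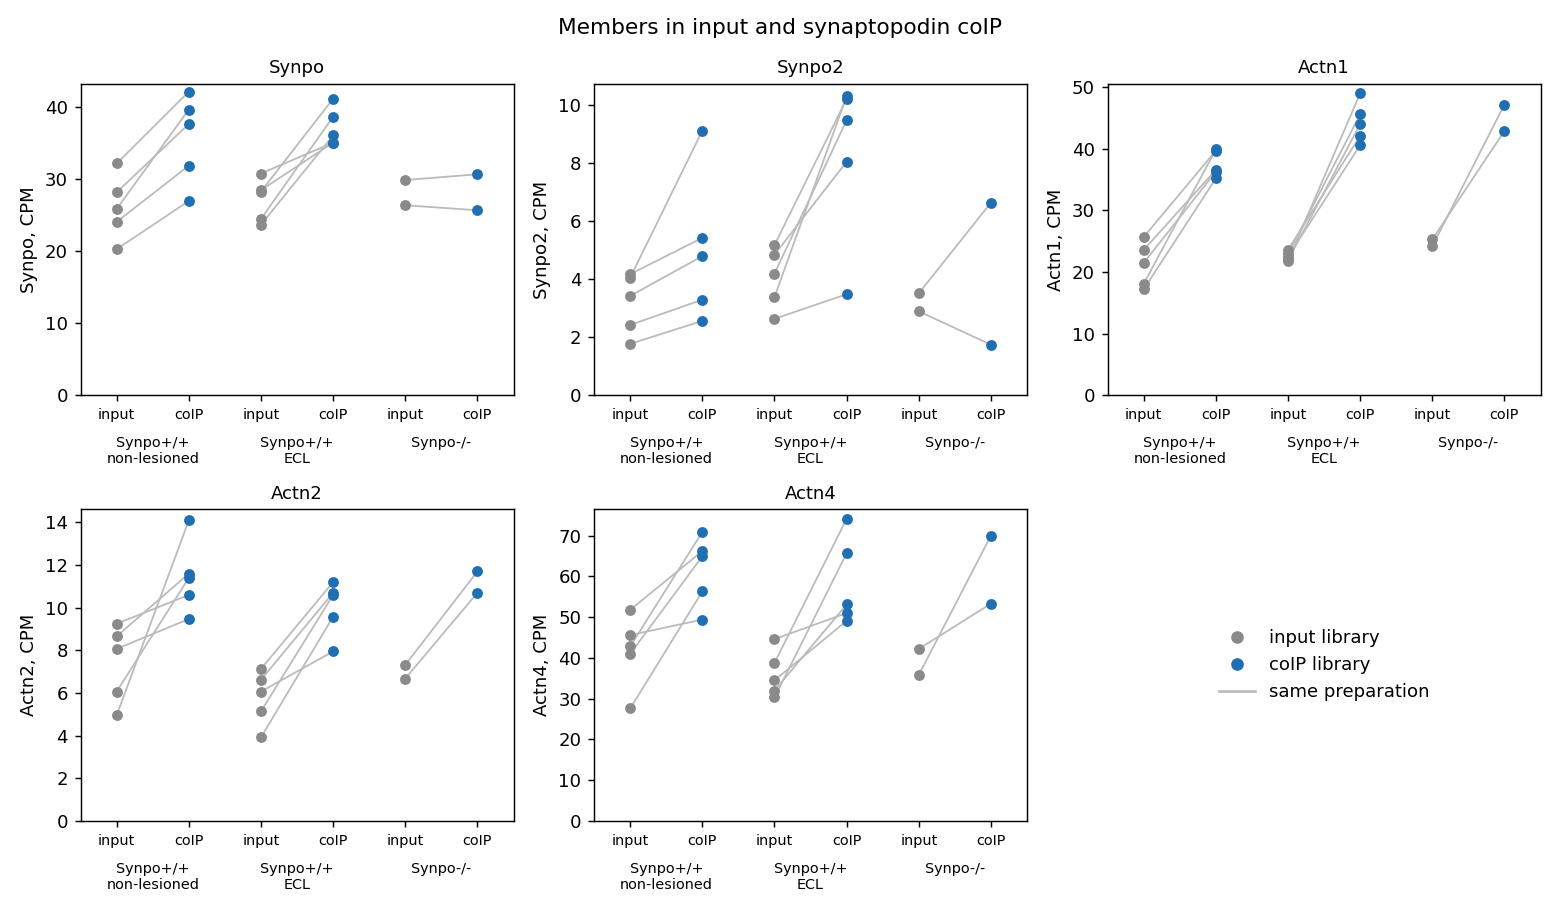
CPM of 5 members (vertical axes) in input (grey) and synaptopodin coIP (blue) of non-lesioned Synpo+/+, lesioned Synpo+/+ and Synpo-/- cultures; lines join samples of the same number, which in Synpo-/- is the first in the title. Actn1 rises in all 12 preparations, including the 2 of Synpo-/-, while Synpo in Synpo-/- stays between 25.7 and 30.7 CPM.

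These counts stand against a large background, since 55% of all genes tested differed between coIP and input in non-lesioned Synpo+/+ (29.6% higher), 58.3% in lesioned Synpo+/+ (30.5% higher) and 31.4% in Synpo-/- (15% higher). Against that, 4 of 5, 5 of 5 and 3 of 5 members tested were called, all of them higher in the coIP. These tests left samples of a preparation unpaired, and with pairing Synpo2 was also called in non-lesioned Synpo+/+. No member tested was called for the lesion in these pooled cultures. In the input, 0 of 5 members were called after ECL (5.61% of all genes), with none at an unadjusted p under 0.05 and none by DESeq2. Synpo had 26.1 ± 4.44 CPM without and 27.2 ± 2.98 CPM with the lesion (log2 fold change 0.05, interval of 2 SE from -0.19 to 0.29). Such intervals were wider for Actn2 (-0.37, from -0.76 to 0.02), Synpo2 (0.35, from -0.15 to 0.85) and Actn4 (-0.22, from -0.52 to 0.08). The interaction of lesion and fraction called 0% of all genes by edgeR and 0 by DESeq2, with 434 genes but no member at an unadjusted p under 0.05. Its value for Synpo was 0.05 (SE 0.177) and for Actn1 0.19 (SE 0.141).

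Of 27 genes for proteins that bind alpha-actinin or sit at Z-discs, 24 were tested after the lesion in DG. In Synpo+/+, 5 were higher and 1 lower (median log2 fold change 0.17, against 0 over all genes, of which 7.86% were higher and 4.31% lower), among them Flna, the actin crosslinker filamin A (0.48, adjusted p 0.0111), Zyx, the focal adhesion protein zyxin (0.59, adjusted p 0.0186), and Palld, the actin-bundling palladin (0.46, adjusted p 0.0199). Nexn was the lower one (-0.60, adjusted p 0.025). Without ECL replicate 5, 6 of 23 tested were higher and 1 lower, and 8.46% of all genes were higher. In Synpo-/-, 5 were higher and none lower (median 0.19, against 0.01 over all genes, of which 5.17% were higher), including Zyx (0.59, adjusted p 0.0164) and the LIM proteins Pdlim4 (0.99, adjusted p 0.00321) and Csrp1 (1.03, adjusted p 0.00716). Of 16 partners and regulators of synaptopodin, 3 were higher and 1 lower in each genotype. The higher ones were Ctsl, a protease that cleaves synaptopodin (0.68 in Synpo+/+ and 0.58 in Synpo-/-), Rhoa, a GTPase of actin assembly that synaptopodin stabilizes (0.70 and 0.46), and Actb (0.58 and 0.36). The lower ones were Cd2ap in Synpo+/+ (-0.40) and Myo5a in Synpo-/- (-0.29). The counts in Synpo+/+ were the same without ECL replicate 5. In these libraries the astrocyte and microglia markers given above were higher after ECL too, and their part in the list changes was not tested.

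Between areas, 7 of the 16 partners were lower and 2 higher in DG than in CA3 of Synpo-/- controls, where Actn1 and Actn2 were lower too (median -0.14, against 0.05 over all genes, of which 12.5% were lower and 13.1% higher). The calcineurin subunits Ppp3r1 (-0.76) and Ppp3cb (-0.65) and the kinase Camk2a (-1.04), which act on synaptopodin by dephosphorylation and phosphorylation, were lower, and the scaffold genes Magi1 (1.25) and Cd2ap (0.45) were higher. Of the alpha-actinin binding genes, 5 of 22 tested were higher and 4 lower, with Ttn (1.97) and Pdlim3 (2.26) higher and Pdlim5 (-0.46), Pdlim2 (-0.98) and Tln2 (-0.44) lower. In the coIP of non-lesioned Synpo+/+, 9 of 22 alpha-actinin binding genes were higher and 2 lower, and Tln2 (1.29), Palld (0.86) and Flna (1.35) had the smallest p among the higher ones. Over all genes 29.6% were higher and 25.5% lower. The median log2 fold change of this list was -0.05, against 0.04 over all genes. In Synpo-/- 7 of 24 were higher and 2 lower, with Flna (1.01) and Tln2 (0.85) among the higher, against 15% higher and 16.4% lower over all genes. The list median there was -0.01, against 0.02 over all genes. Of the partners, 5 were higher and 7 lower in non-lesioned Synpo+/+ and 1 of each in Synpo-/-, where Myo5a was higher (0.53) and Rhoa lower (-0.44).

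Across the 39 regional libraries, log2 CPM of Actn1 and Actn2 moved together (Pearson r 0.85, and 0.60 for deviations from group means), and Synpo2 moved against Actn1 (-0.70 and -0.64). Synpo and Actn4 had r of 0.35, and 0.67 within groups. Without Synpo+/+ DG ECL replicate 5 the values within groups were 0.48 for Actn1 with Actn2, -0.48 for Synpo2 with Actn1 and 0.63 for Synpo with Actn4. These are descriptions over libraries that share area, genotype, lesion and cell content. Genes whose pattern was closely like that of Actn1 included Rims1 (r 0.915) and Fgf13 (0.915), and those most like Actn2 were Ppp1r14c (0.932), Fgf13 (0.925) and Pcdh20 (0.918). Actn4 was followed most closely by Dmwd (0.894), Lman2l (0.887) and Hdgf (0.884), Synpo2 by Pard3b (0.784), 4930402H24Rik (0.76) and Frmd4b (0.754), and Synpo by Timm29 (0.744), Rps3a1 (0.744) and 1500015A07Rik (0.716). Synpo thus had the weakest best match of the 5 genes.

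**Figure D5:**
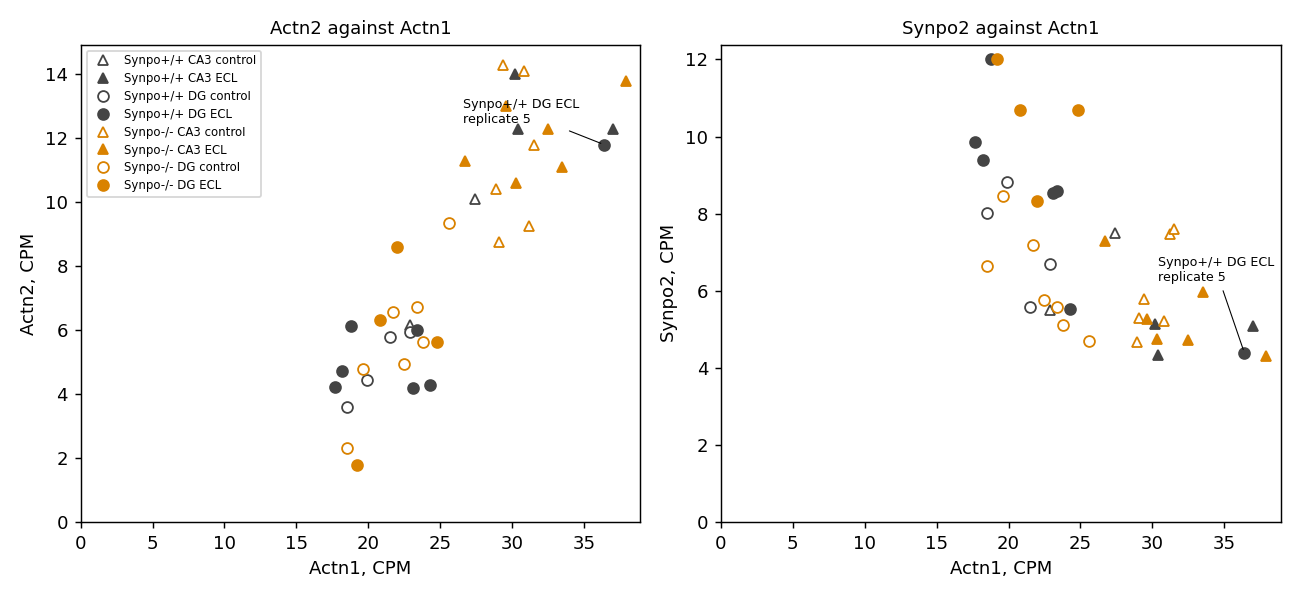
CPM of Actn2 (left) and Synpo2 (right) against CPM of Actn1 in the 39 regional libraries, with triangles for CA3, circles for DG, black for Synpo+/+, orange for Synpo-/-, open symbols for control and filled symbols for ECL. Most DG libraries lie below most CA3 libraries in Actn1 and Actn2, with overlap, and Synpo+/+ DG ECL replicate 5, at 36.4 and 11.8 CPM, is the highest of DG and at 4.39 CPM also has the lowest Synpo2 of the DG libraries.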

How the data were processed

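RNA of single microdissected cultures (paired reads of 100 bases) and of coIP and input samples (paired reads of 150 bases) was sequenced. The authors trimmed reads with cutadapt 3.5, aligned them with STAR 2.7.8a and deposited raw counts per gene symbol, made with featureCounts 2.0.1 over exons without strand (mm10, GENCODE M25), for samples with over 60% of reads mapping uniquely. Depth limits the precision of low genes, above all Synpo2l.

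From these counts, edgeR 4.0.16 (R 4.3.3) with TMM factors, filterByExpr and the quasi-likelihood test was run on the groups of each comparison, and p-values were adjusted over all genes tested (Benjamini-Hochberg, threshold 0.05). Intervals are 2 SE on each side. Scripts were tested on simulated data. CPM use the TMM-scaled library size, and correlations use log2 CPM with a prior count of 2. Alternatives were DESeq2 1.42.0, RLE size factors, no filter, length and GC trends removed, all groups in one fit, a replicate block and leaving out each library; crossed Synpo-/- numbers, and lists and correlations without Synpo+/+ DG ECL replicate 5, were added after seeing the data. Named genes were the members, up to 3 called genes of each list and direction with the smallest p, and the 3 genes most correlated with each member, of which 1 is not reported here. Members and lists were chosen with earlier results of these data known. Input was an aliquot of the lysate used for the coIP, and the main tests left these samples unpaired. For ratios and the replicate block, samples were paired by number (in Synpo-/- the first of 2 numbers in the title, which disagree for the inputs). Deviations of paired samples correlated with r of 0.142 to 0.336 in non-lesioned Synpo+/+, 0.0716 to 0.261 in lesioned Synpo+/+ and 0.0476 in Synpo-/-. With 2 samples per fraction in Synpo-/-, deviations from the group mean mirror each other, so both pairs must give the same r. The sources do not tie regional libraries to animals, so p-values measure the spread between cultures.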

Additional observations from a re-analysis of the deposited data

Results flagged for a closer look

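In Synpo+/+ DG after ECL, replicate 5 lay far from the other 6 libraries for 2 members. Its Actn1 level was 36.4 CPM, against 17.7 to 24.3 CPM in the others, and its Actn2 level was 11.8 CPM, against 4.20 to 6.12 CPM. It is the library with 15.5 CPM of Prox1. Dixon's test was applied to 60 sets of 4 to 7 libraries and marked these 2, and chance marks about 1 in 20 such sets.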

How the results depend on the processing

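Of 23 member results that were called, all 23 passed with DESeq2 and without the filter on low counts, 22 with RLE size factors, 22 with all groups in one fit, 21 with the replicate block and 19 with the length trend removed. The number of members called after ECL in Synpo+/+ DG went from 1 to 0 with RLE size factors or the length trend removed, to 2 with all groups in one fit, and to 0 to 1 when 1 library was left out. In Synpo-/- DG it went from 2 to 0 with the replicate block (Synpo -0.33, adjusted p 0.119; Synpo2 0.60, adjusted p 0.127), and to 1 to 2 when 1 library was left out. Between genotypes in control CA3 it went from 0 to 1 with DESeq2, no filter or the replicate block (Synpo 0.56, adjusted p 0.0331). Between areas in lesioned Synpo+/+ cultures it went from 1 to 2 with DESeq2 or no filter, to 3 with all groups in one fit or the replicate block, and to 0 to 3 when 1 library was left out. The share of all genes called there rose from 2.05% to 19.8% without DG ECL replicate 5. For the other settings of that comparison, shares of all genes are not given. In the coIP the number of members called went from 4 to 2 in non-lesioned Synpo+/+ with length and GC trends removed. It went from 5 to 3 in lesioned Synpo+/+ with the length trend removed, and from 3 to 1 to 3 in Synpo-/- when 1 library was left out. Synpo turned to -0.19 and -0.23 in non-lesioned and lesioned Synpo+/+ coIP with length and GC trends removed. The cause of these changes was not tested. Regional libraries share only a number, so the block there is no pairing by design. Deviations of same-numbered DG and CA3 libraries of Synpo-/- controls correlated with r of -0.0371 to 0.482, over 0.1 in 3 of 6 pairs. The labels do not say whether such libraries share a culture. Between areas in Synpo-/- controls, 3 to 4 members were called in all settings. Over all genes, DESeq2 called 834 genes against 1 between genotypes in control CA3, and 1457 against 397 after ECL in Synpo+/+ CA3. With the Synpo-/- numbers crossed in the replicate block, 3 members were called in the Synpo-/- coIP and 0 in the interaction of genotype and fraction, the same counts as without the block; this pairing was added after seeing the data.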
